A study of Mus musculus with 6 samples.

Results

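Cochlin (Coch), otospiralin (Otos), the tectorins (Tecta, Tectb), otogelin (Otog), otogelin-like (Otogl), otoancorin (Otoa) and Ceacam16 are 8 mouse genes of the extracellular matrix of the inner ear, and they were chosen by name. Counts were listed for transcripts of 5 of them, of 33676 genes with a listed transcript in all. Otos, Tectb and Otogl had no listed transcript and are not analysed here. The table of counts ends after 65535 transcripts, and 46.0% of the 141767 transcripts of the annotation used were listed, so a gene without a listed transcript is not a gene without RNA. The tissue was the modiolus, around which the cochlear turns are wound and in which the spiral ganglion neurons (SGNs) lie, and its RNA was sequenced in 3 control and 3 degenerated libraries. All 6 libraries came from C57BL/6 mice. The control mice received saline. The degenerated group received 1 g/kg kanamycin sulfate and, 30 min later, 0.4 g/kg furosemide, a combination known to destroy hair cells, and by the methods was taken on day 30 from male mice that were 8 weeks old when the model was set up. No source used here states whether a library came from 1 mouse or from several, so p-values measure only the spread between these libraries.

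The sense organs of the inner ear are covered by acellular gels, the tectorial membrane in the cochlea and the otoconial membranes and cupulae in the vestibular organs. Tectorins form the striated sheet of the tectorial membrane, Ceacam16 is a secreted adhesion protein that works with them, and otogelins are large mucin-like glycoproteins of these gels. Otoancorin sits where the tectorial membrane is attached to the spiral limbus. Cochlin is a matrix protein that fibrocytes of the spiral ligament and limbus secrete in large amounts. Each of these 5 genes is a known deafness gene.

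The values cover very different parts of these genes. Both annotated transcripts of Ceacam16 were listed (GRCm38, chromosome 7 from 19852097 to 19861299, minus strand). For Coch (chromosome 12 from 51593341 to 51605771, plus strand), 1 of 4 transcripts was listed. It holds the whole coding sequence of 1656 bases and 89.4% of all exonic bases. For Otog (chromosome 7 from 46240987 to 46311434, plus strand), 2 of 3 transcripts were listed, namely a retained-intron transcript of the 5′ part and a coding fragment of the 3′ part, and they cover 47.7% of the coding sequence of 8733 bases. For Tecta (chromosome 9 from 42329619 to 42399929, minus strand), the listed transcript was 1 of 3, a processed transcript without a coding sequence. It covers 23.0% of the bases that code for the protein in Tecta-201, which was not listed. For Otoa (chromosome 7 from 121081650 to 121163097, plus strand), 2 of 7 transcripts were listed, both short, and they cover 18.4% of the 3411 coding bases of Otoa-201. Of the 28 annotated transcripts of the 8 genes, 8 were listed, and only for Ceacam16 do the counts stand for the whole gene.

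**Figure D1:**
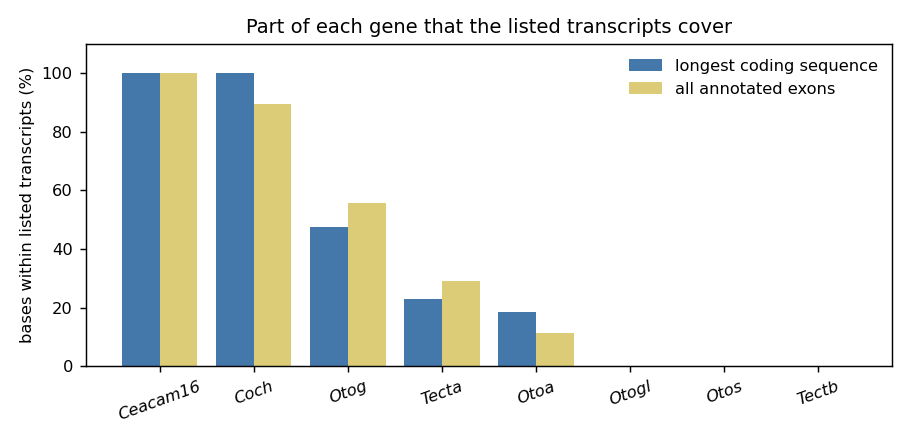
Share of bases, in percent, that fall within listed transcripts, for the longest annotated coding sequence (blue bars) and for all annotated exons (yellow bars) of each of the 8 genes. Ceacam16 is covered in full, Coch in 100% of its coding sequence, Otog in 47.7%, Tecta in 23.0% and Otoa in 18.4%, and Otogl, Otos and Tectb are at 0 because no transcript of theirs was listed.

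The transcripts of Ceacam16 differ in a splice junction, and those bases are shown since they alone set the shorter transcript apart. Ceacam16-201 has 1635 bases in 6 exons with 1278 coding bases. Ceacam16-202 has 488 bases in 3 exons, all within exons of Ceacam16-201. Its own intron runs from 19852314 to 19853789 on chromosome 7 and leaves out 218 coding bases of Ceacam16-201. In the transcript sequences of GENCODE M21, given 5′ to 3′ on the transcript strand, the 30 bases before this point are the same in both (lower case), and the 30 bases after it (capitals) differ.
Ceacam16-202: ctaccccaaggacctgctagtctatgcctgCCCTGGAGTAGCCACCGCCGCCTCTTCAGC
Ceacam16-201: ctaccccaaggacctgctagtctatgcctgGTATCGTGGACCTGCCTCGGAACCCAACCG
The first 150 coding bases of Ceacam16-201, from the start codon in capitals, belong to the part that only this transcript has.
Ceacam16-201: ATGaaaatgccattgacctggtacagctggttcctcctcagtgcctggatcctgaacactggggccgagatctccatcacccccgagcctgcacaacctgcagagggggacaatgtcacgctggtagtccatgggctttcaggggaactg

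The promoter of Coch, the other abundant gene, is shown with its matches to a short motif. The promoter windows used (RefSeq, GRCm38.p6) covered 6 of the 8 genes, without Ceacam16 and Otogl. The 250 bases before the start were searched on both strands for 3 short motifs. They were TATAAA, the box known as CCAAT from its letters, and the GC box spelled GGGCGG. Capitals mark the GC box or its complement in the window of Coch at chr12:51593091-51593340, plus strand.
Coch: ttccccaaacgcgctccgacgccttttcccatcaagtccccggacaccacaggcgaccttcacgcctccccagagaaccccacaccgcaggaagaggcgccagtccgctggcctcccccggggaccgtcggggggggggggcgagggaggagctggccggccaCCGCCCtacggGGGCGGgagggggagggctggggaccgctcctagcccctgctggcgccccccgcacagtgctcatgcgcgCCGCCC
Coch held 3 matches to GGGCGG, and 8.47% of 32817 windows of all genes held 3 or more. At least 1 match stood in 32.7% of all windows and in 0 of the 6 other windows of these genes. None of these windows held TATAAA, which 12.4% of all windows held. CCAAT stood in the windows of Otog and Otoa, as in 33.8% of all windows.

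The libraries held 12480876 to 15549319 counts over the listed transcripts. Markers of SGNs were present in every library, with a summed level of 9402 to 11632 CPM (counts scaled to 1000000 per library, with TMM factors) in controls and 5417 to 8228 CPM in degenerated libraries. The labels give the cell type as SGN, but other cells were present too. Markers of blood and bone marrow summed to 4479 to 48322 CPM, and the library labelled control replicate 3 held 352 CPM of skeletal muscle markers, against 1.13 to 5.16 CPM in the other 5. In these bulk libraries, fewer cells of a type and less RNA per cell cannot be told apart.

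Ceacam16 rose in degenerated libraries. It had 18053, 18534 and 14082 counts in control replicates 1, 2 and 3, which are 1195, 1311 and 899 CPM. In degenerated replicates 1, 2 and 3 it had 34308, 40286 and 34774 counts, which are 2347, 2837 and 2745 CPM. Every degenerated library lay far above every control. The mean rose from 1135 ± 213 CPM to 2643 ± 261 CPM (SD, n = 3 each), or 2.33-fold. On the log2 scale the fold change was 1.22 (SE 0.18, 95% interval 0.79 to 1.65, edgeR unadjusted p 0.000396, adjusted p 0.175). A gene was called where its unadjusted p was under 0.01 and its log2 fold change exceeded 0.2 in size. Ceacam16 met these criteria, and it did not reach the stricter limit of 0.05 on the adjusted p. By its p it stood at place 32 of the 14118 genes tested. The log2 fold change lay between 1.07 and 1.33 over 13 other settings, and the criteria were passed in each of them. Its adjusted p ranged from 1.83e-05 with DESeq2 to 0.602 with the replicate number as a block.

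By these criteria, 1 of the 5 genes was called higher, against 2.01% of all genes tested, and 0 were called lower, against 0.715%. On the adjusted p, edgeR called 0% of all genes at 0.05, while 1367 genes had an unadjusted p under 0.05 and DESeq2 called 383 at its adjusted p. Among the 5 genes, the groups did not overlap in Ceacam16 alone, and 10.3% of all genes had every degenerated library above the controls. The median log2 fold change was 0.39 over the 5 genes and -0.003 over all genes tested.

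Of the Ceacam16 transcripts, the long one carried nearly all counts. Ceacam16-201 had 18039, 18534 and 14071 counts in controls and 34293, 40271 and 34759 in degenerated libraries. It was called higher in the test across 26065 transcripts, with a log2 fold change of 1.18 and a standard error of 0.17 (edgeR unadjusted p 0.000505, adjusted p 0.239). Ceacam16-202 had 14, 0 and 11 counts in controls and 15 in each degenerated library. Its log2 fold change of 0.94 had a 95% interval of -1.65 to 3.53, so a change was not detectable at these counts (unadjusted p 0.405 in edgeR's test). Of the 8 listed transcripts of these genes, 6 were tested, and Ceacam16-201 was the 1 called higher, where 1.14% of all transcripts were called higher and 0.652% lower. By edgeR's adjusted p, 0.0153% of all transcripts passed 0.05 and 0 of these 6 did, and with DESeq2 the adjusted p of Ceacam16-201 was 0.000374.

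Some reads of Ceacam16 may be shared with a neighbour. Gm19345 lies on the opposite strand, and its exons overlap 380 of the 1635 exonic bases (23.2%). No source used here states that strand was used in counting, so reads of this stretch cannot be assigned with certainty. Gm19345 had 1005, 1018 and 433 counts in controls and 1211, 2198 and 1296 in degenerated libraries, which is 3.07% to 5.57% of the counts of Ceacam16 in the same library. Other genes of the Ceacam family with a listed transcript, looked up after the values were seen, were low. Ceacam1 had 143 to 270 counts, Ceacam2 had 137 to 235, and none of the rest had more than 6 in a library.

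**Figure D2:**
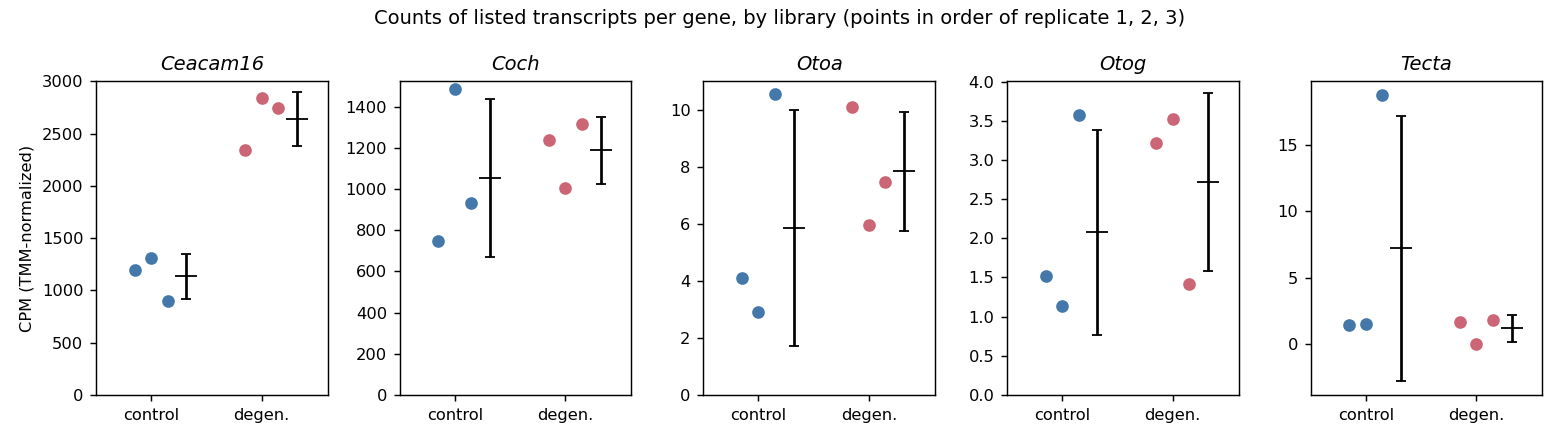
CPM of each gene (sum of its listed transcripts, y axis, own scale per panel) in 3 control (blue) and 3 degenerated (red) libraries, with the mean and SD in black (n = 3). Ceacam16 spans 899 to 1311 CPM in controls and 2347 to 2837 CPM in degenerated libraries, while the groups overlap for Coch, Otoa, Otog and Tecta, and 1 control library sets the mean of Tecta.

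Coch did not pass the criteria, and its groups overlapped. Its listed transcript, Coch-202, had 11313, 20976 and 14584 counts in controls, or 749, 1484 and 931 CPM. In degenerated libraries it had 18114, 14298 and 16682 counts, or 1239, 1007 and 1317 CPM. Control replicates 1 and 2 were the lowest and the highest of all 6 libraries, with the degenerated libraries between them. The means were 1054 ± 383 and 1188 ± 161 CPM (SD, n = 3 each). The log2 fold change was 0.17 (95% interval -0.50 to 0.84, unadjusted p 0.553 and adjusted p 0.870 in edgeR's test). Its sign turned without control replicate 1 (-0.036), and it was 0.50 without control replicate 2 (unadjusted p 0.0397 in edgeR's test). Coch-202 shares 91.6% of its bases with Coch-201 and has no junction of its own, so the table holds the part of the reads that the authors' counting gave to Coch-202.

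Within each group, Coch stood in the same order as the summed levels of 3 of 10 gene lists, those of blood and bone marrow, of bone and of matrix genes of the inner ear, which was noticed after the values were seen. The blood and marrow list summed to 6456, 48322 and 25417 CPM in control replicates 1, 2 and 3 and to 7496, 4479 and 18969 CPM in degenerated replicates 1, 2 and 3. The bone list summed to 579, 915 and 616 CPM and to 352, 270 and 464 CPM, and the matrix list to 813, 1195 and 903 CPM and to 834, 718 and 956 CPM. Between the groups, the median log2 fold change was -0.94 for bone, -1.43 for blood and -0.10 for matrix genes, against 0.17 for Coch. Of the bone list, 1 of 4 tested genes was called lower, and of the blood list 0 of 7, against 0.715% of all genes tested. The called gene was Bglap, the osteocalcin gene (log2 fold change -1.54). Col1a1 of the bone list was near 0 in its 1 listed transcript, with at most 0.424 CPM. None of the measured markers in these lists was at 0 in all libraries, and their part in the spread of Coch was not tested.

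Otoa was low in the listed transcripts and did not pass the criteria. It had 62, 41 and 166 counts in controls and 148, 85 and 95 in degenerated libraries. This corresponds to 5.87 ± 4.14 and 7.87 ± 2.09 CPM (SD, n = 3 each), with control replicate 3 above all other libraries and the other controls below all degenerated libraries. The log2 fold change was 0.42 (95% interval -0.92 to 1.76, unadjusted p 0.471 in edgeR's test), and it ran from 0.096 without control replicate 2 (unadjusted p 0.862) to 1.16 without control replicate 3 (unadjusted p 0.0354, adjusted p 0.649, edgeR's test). Leaving out control replicate 1 gave 0.22, and leaving out degenerated replicate 1 gave 0.20. Otoa-205, a coding fragment of the 5′ part, held 78.0% to 100% of these counts. Otoa-204 had 7, 9 and 0 counts in controls and 10, 0 and 7 in degenerated libraries and did not pass the filter on low counts.

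Otog was lower still, with 23, 16 and 56 counts in controls and 47, 50 and 18 in degenerated libraries. The levels of 2.08 ± 1.31 and 2.72 ± 1.13 CPM (SD, n = 3 each) overlapped. The log2 fold change was 0.39 (95% interval -1.04 to 1.81, unadjusted p 0.532 in edgeR's test), and ran from 0.092 without control replicate 2 (unadjusted p 0.887) to 1.02 without control replicate 3 (unadjusted p 0.118 in edgeR's test). Leaving out control replicate 1 gave 0.20, and leaving out a degenerated library gave 0.24, 0.14 and 0.69 for replicates 1, 2 and 3. Nearly all counts were those of the 5′ retained-intron transcript Otog-203. The 3′ coding fragment Otog-202 had 1 to 4 counts in a library and was not tested.

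Tecta was set by a single library. Its listed transcript had 21, 21 and 294 counts in controls and 24, 0 and 23 in degenerated libraries, or 1.39, 1.49 and 18.8 CPM against 1.64, 0 and 1.82 CPM. Apart from control replicate 3, the libraries with counts were nearly alike. The count of 0 in degenerated replicate 2 allows up to 0.210 CPM (3 counts over the library total without its TMM factor, counting error only). The log2 fold change of -2.64 had a 95% interval of -6.49 to 1.20 (unadjusted p 0.144 in edgeR's test), and without control replicate 3 it was -0.33 (unadjusted p 0.822 in edgeR's test). DESeq2 gave no p for Tecta. The library that was high in Tecta was the one with skeletal muscle markers, of which 6 of 7 were detected and Myh2 was at 0 in all libraries. Whether Tecta and the muscle markers are related was not tested. Otoa and Otog were also highest in this library, at 10.6 and 3.57 CPM, but by small margins over degenerated replicate 1 (10.1 CPM) and degenerated replicate 2 (3.52 CPM).

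**Figure D3:**
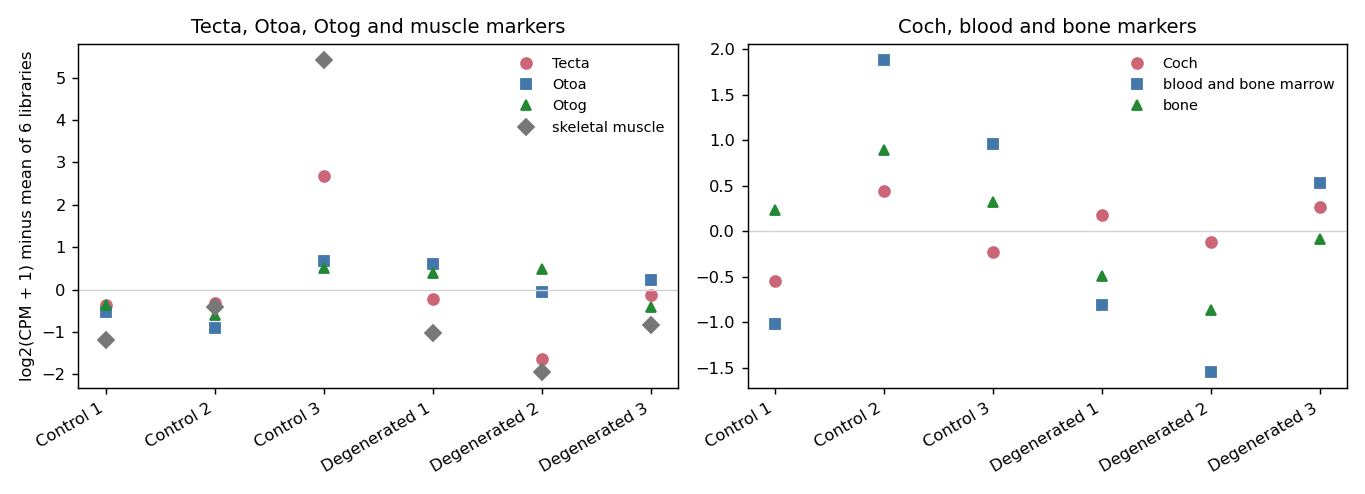
Level in each of the 6 libraries relative to the mean of all 6, on the log2(CPM + 1) scale (y axis), for Tecta, Otoa, Otog and the summed skeletal muscle markers (left) and for Coch and the summed blood and bone markers (right). Control replicate 3 stands at 2.68 for Tecta and 5.42 for the muscle markers, and within each group Coch follows the order of the blood and bone markers. Between the groups, the median log2 fold change was -1.43 for blood and -0.94 for bone markers, against 0.17 for Coch.

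Levels between genes were compared per length, as TPM over the listed transcripts, in which counts are divided by transcript length. TPM values and ranks are relative to the listed transcripts alone and would shift with a fuller table. Only Ceacam16 had all its transcripts listed, while the values of the other genes leave out their unlisted transcripts, such as Coch-201. The ratios and the order between genes below are therefore those of listed transcripts, not of whole genes. In controls, Ceacam16 was at 1269 ± 241 TPM, Coch at 708 ± 214, Otoa at 15.8 ± 9.42, Tecta at 6.02 ± 8.31 and Otog at 1.69 ± 1.08 (SD, n = 3 each). Ceacam16 and Coch did not overlap, and neither overlapped with the other genes. Otoa and Tecta overlapped, as did Tecta and Otog. In degenerated libraries the means were 3195 ± 426, 870 ± 97.3, 22.5 ± 5.80, 1.03 ± 0.90 and 2.39 ± 1.04 TPM in the same order of genes, and Tecta and Otog overlapped again. Within a library, Ceacam16 exceeded Coch by 2.62, 1.45 and 1.59 times in controls and by 3.11, 4.62 and 3.42 times in degenerated libraries. These ratios did not overlap between the groups, and an exact two-sided permutation test on them cannot go below 0.1. Ceacam16 took ranks 62 to 115 among all genes with a listed transcript in controls, and ranks 20 to 31 in degenerated libraries. Coch ranked between 101 and 206 in all 6 libraries. Together, Ceacam16 and Coch took 98.2% to 99.8% of the counts of the 5 genes.

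**Figure D4:**
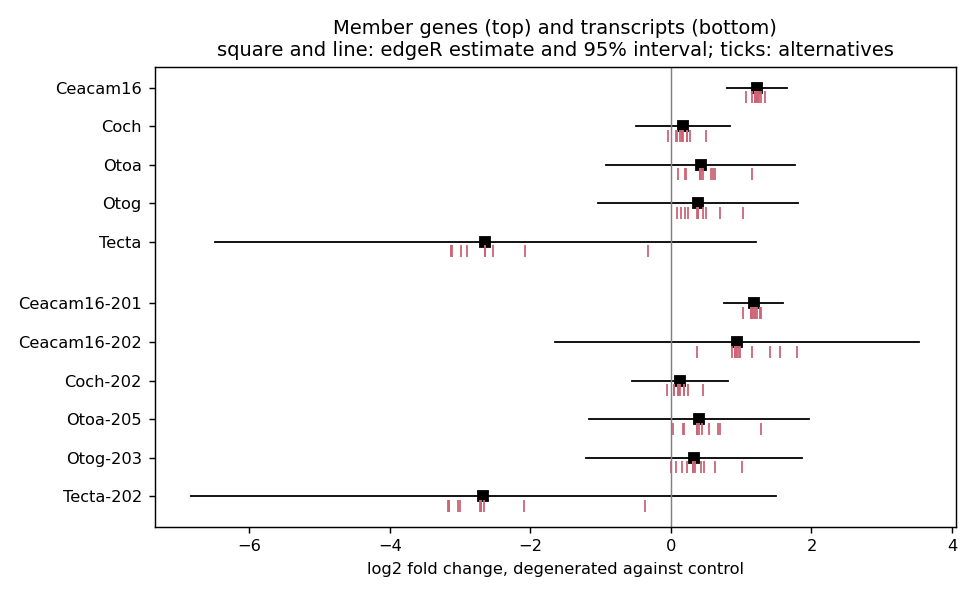
Log2 fold change of degenerated against control libraries (x axis) for the 5 genes (top) and their 6 tested transcripts (bottom), with the 95% interval of edgeR's fit as a line and each alternative setting as a red tick. The intervals of Ceacam16 and Ceacam16-201 lie above 0, and all the others include 0.

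Other genes of these gels were taken from a list of 14, with collagens of the tectorial membrane, stereocilin, which couples hair bundles to it, and otoconial genes. Of these, 10 had a listed transcript and 9 were tested. None was called in either direction, 4 had a positive log2 fold change, and the median was -0.10. Col2a1, the type II collagen chain, had 385, 474 and 250 CPM in controls and 304, 304 and 397 CPM in degenerated libraries. Col11a2 (183, 531 and 445 against 244, 274 and 361 CPM) and Col9a1 (92.5, 104 and 101 against 105, 83.7 and 89.5 CPM) overlapped as well. Otol1, which encodes the otoconial protein otolin, had 45.7, 23.3 and 39.1 CPM in controls and 96.5, 2.82 and 52.2 CPM in degenerated libraries, the lowest and highest values both being of the degenerated group. The otoconial gene Oc90 was at or near 0, with at most 0.211 CPM.

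Cell types of the cochlea were followed with lists of markers beside the rise of Ceacam16. Supporting cell markers summed to 634 to 928 CPM in controls and 786 to 1032 CPM in degenerated libraries, with 0 of 10 tested genes called. Of these sums, Slc1a3 alone held 262 to 464 and 403 to 684 CPM. Over the 10 genes the median log2 fold change was 0.02, and 6 had a positive value. Lgr6 had 17.3 to 30.4 CPM in controls and 35.1 to 43.5 CPM in degenerated libraries. Its log2 fold change was 0.85 (unadjusted p 0.0194 and adjusted p 0.421 in edgeR's test). Fibrocyte markers summed to 7651 to 9069 and 8052 to 11446 CPM, with 0 of 7 called. Over these 7 genes the median log2 fold change was 0.36, and 6 had a positive value. Gjb2, the connexin 26 gene, had a log2 fold change of 0.36 (unadjusted p 0.0186 and adjusted p 0.417 in edgeR's test). Of the hair cell markers, 3 of 11 tested genes were called lower, against 0.715% of all genes tested. The list summed to 582 to 899 CPM in controls and 185 to 542 CPM in degenerated libraries. Among the called, Ocm, the oncomodulin gene, had 140 to 173 CPM against 0.789 to 3.90 CPM. The other 2 called were Slc26a5, which encodes the motor protein prestin of outer hair cells (log2 fold change -5.11), and Myo15, which encodes a myosin of stereocilia (-2.31). The rest were not called, and 2 of the 11 had a positive log2 fold change, Myo7a (0.15) and Cdh23 (0.67). Of the SGN markers, 2 of 11 were called lower, Calb2 and Pvalb, which encode calcium-binding proteins of neurons. In the list for the stria vascularis, 4 of 6 genes had a row and 2 were tested. Of these 2, 1 was called higher, against 2.01% of all genes tested. The called gene was Kcnj10, a potassium channel gene (log2 fold change 0.83), and Cldn11 was not called (0.19). Kcnq1 was near 0, with at most 0.158 CPM, but only 1 of its 7 annotated transcripts was listed. In the Schwann cell list 0 of 6 were called. None of the measured markers in these lists was at 0 in all libraries. Slc17a8, with only 1 of its 2 annotated transcripts listed, had counts in 1 library only. Sox2, Epyc and Tbx18 had no row. The part of cell composition in the rise of Ceacam16 was not tested.

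The genes most like each member over the 6 libraries were found by the root mean square difference of mean-centred log2(CPM + 1). For Ceacam16 these were Ibtk (0.109) and Gm37240 (0.136), against a spread of 0.643 of Ceacam16 itself. For Coch they were 4933404O12Rik (0.0468) and Cnpy3 (0.0896). Otoa was nearest to Cul5 (0.125) and D330050G23Rik (0.168), and Otog to Gm43751 (0.130) and Selenop (0.156). Tecta was nearest to Tnni2 (0.272), a troponin gene of fast skeletal muscle, and to Cxcl9 (0.320). Among 14117 other genes and only 6 libraries, such likeness is a description.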

How the data were processed

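Modiolus RNA was sequenced in 6 libraries, and columns were matched to samples by their titles. The authors deposited 1 table of raw counts per Ensembl transcript, without normalization. The methods name Hisat2 2.1.0 and StringTie 1.3.3b, while the submitters' processing notes name Bowtie 0.12.2 and the builds mm8 and mm10, with no role given. StringTie is named for gene expression. How the raw counts were made, and the annotation and strand setting, are not stated in the sources used here. Transcripts were matched by identifier to GENCODE M21 (GRCm38), 65272 of 65535, and summed per gene. With its header the table fills 65536 lines, the row limit of older spreadsheet formats, and whether transcripts were cut off there was not tested. For genes, and separately for transcripts, low counts were filtered with filterByExpr, libraries scaled with TMM, and the groups compared by the robust quasi-likelihood F test of edgeR 4.0.16 (R 4.3.3) without covariates, with Benjamini-Hochberg adjustment over all genes or transcripts tested. Intervals use the standard error and the degrees of freedom of that fit. The steps were tested on simulated data. Alternatives were DESeq2 1.42.0, limma-voom (limma 3.58.1), RLE normalization, other filters (none, or a mean count of 10), the replicate number as a block, each library left out in turn, and only genes with every transcript listed.

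The members, the marker lists and the list of matrix genes were chosen with earlier results of these data known. Named were all members and their listed transcripts, the 2 genes most like each member, the 4 matrix genes with the most CPM, called genes of the lists, and markers at or near 0 beside a member's result. Oc90, Cldn11, Gjb2, Lgr6, Slc1a3, Myo7a, Cdh23, Gata3, Prph, Isl1, Gm19345 and other Ceacam genes were named after their values were seen. Genes without a listed transcript were left out.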

Additional observations from a re-analysis of the deposited data

How the results depend on the processing

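The genes called numbered 385 of 14118 tested, 785 with DESeq2 (479 higher and 306 lower, against 284 and 101) and 218 with the replicate block. Where only genes with every transcript listed were kept, 135 of 3470 tested were called, a larger share of a smaller set. Transcripts called numbered 466, and 1212 with DESeq2 and 221 with the replicate block. The cause of these shifts was not tested. Ceacam16 and Ceacam16-201 kept their direction and passed the criteria in all 13 and 12 settings. Without 1 library at a time, the log2 fold change of Coch ran from -0.036 to 0.50 and that of Coch-202 from -0.055 to 0.45, negative in each case without control replicate 1. No other member turned its direction or changed its call. Same-numbered libraries did not deviate together in all pairs (r across genes 0.16, -0.09 and 0.07), and control replicate 2 was closest to degenerated replicate 3 (0.24), so the numbers were not taken as pairs. Otoa, at 0.096 to 1.16, Otog, at 0.092 to 1.02, and Tecta, at -3.13 to -0.33, moved widely. At no more than 15 counts in a library, depth limits what Ceacam16-202, Otoa-204 and Otog-202 can show. Since Otos, Tectb and Otogl and the full-length transcripts of Tecta, Otog and Otoa were not in the counts used, nothing can be read about them.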
